A study of Mus musculus with 16 samples.

Results

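The regions described here are the stretches of open chromatin that the authors' annotation places in the first intron of a gene, in monocytes of the newborn mouse spleen. They were taken as the rows of the authors' deposited ATAC-seq table whose annotation reads intron and names intron 1 of a transcript, which gave 3571 of 40796 regions. In ATAC-seq a transposase inserts adapters where DNA is accessible, and regions rich in reads are open chromatin. The cells were wild type, from spleens of 7-day-old mice given as C57BL/6J for RNA and C57BL/6 for ATAC, and were sorted into an Nrp1 high and an Nrp1 low fraction. Nrp1 (neuropilin-1) is a surface co-receptor for semaphorins and VEGF. There were 5 ATAC libraries of 50000 cells and 3 RNA libraries of 80000 cells in each fraction. All samples carry the cell type label of myeloid-derived suppressor cells, while the protocol calls the sorted cells monocytes. The labels mention pooled RNA and name no animals behind the libraries, so every p-value here reflects variation among libraries that could be technical. The question put to the comparison is whether chromatin differs between the fractions.

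A first intron is the stretch between the first and second exon of a transcript. In many mammalian genes it is the longest intron, and enhancers, alternative promoters and other regulatory elements are often found in it. A region that opens there may act on the host gene, on another transcript that starts inside the intron or on a gene farther away, and accessibility alone does not say which. The host gene below is the gene of the transcript that the annotation names.

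Each region of the deposited table carries a log2 fold, its p-value and the FDR (the p-value adjusted over all listed regions), and no value per library was used here. A region was called where its deposited FDR was under 0.05. The name of the comparison puts Nrp1 high first, and no column states the direction, so folds are written below as positive or negative, not as higher in one fraction. The values bear on this doubt. The deposited table lists the promoter regions of Camp and S100a9, genes of neutrophil granules and cytosol, at log2 folds of 1.09 and 1.11 (FDR 0.00244 and 0.00378). Their RNA was lower in Nrp1 high than in Nrp1 low, with log2 fold changes of -3.71 and -2.99 (edgeR adjusted p 0.00416 and 0.00825). Of 24 called regions nearest to one of 19 genes called in RNA, 20 had a positive and 4 a negative deposited fold. Over all called regions, 33.9% had a positive fold. The sign of the RNA change was shared by 3 of the 24. Of the 106 genes called in RNA 105 were lower in Nrp1 high, so this number nearly repeats the count of negative folds. Nrp1 itself has no region in a first intron. Its deposited later-intron folds were 1.47, 1.50 and -0.39 in the 3 called regions, beside an RNA log2 fold change of 1.32 ± 0.36 (SE, edgeR adjusted p 0.259).

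Few of these regions can be shown letter by letter, because the sequences used here are 250 bases before each RefSeq transcript start (GRCm38.p6). Parts of 14 first-intron regions lie in such a window, and 2 of the 14 were called. Both called stretches are shown because they let a start inside the host intron be seen beside a fold. The Prkce stretch is chr17:86243307-86243487 on the minus strand, before a start of the predicted gene Gm52296. The Add3 stretch is chr19:53208889-53209045 on the minus strand, before a start of the predicted gene Gm52402. The Trim30a stretch, chr7:104446126-104446375 on the minus strand, is shown because RefSeq gives a start of Trim30a itself there, where the authors' annotation has a first intron. It was chosen after its values were seen. Capitals mark a match to one of the motifs listed in the next paragraph.
Prkce first-intron stretch: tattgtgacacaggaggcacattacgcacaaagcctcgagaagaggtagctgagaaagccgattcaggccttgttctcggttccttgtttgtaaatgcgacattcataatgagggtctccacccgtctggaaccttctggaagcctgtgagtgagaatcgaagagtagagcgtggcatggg
Add3 first-intron stretch: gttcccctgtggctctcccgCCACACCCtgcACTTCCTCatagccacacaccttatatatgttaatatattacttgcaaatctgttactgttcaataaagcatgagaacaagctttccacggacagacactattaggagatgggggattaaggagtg
Trim30a first-intron stretch: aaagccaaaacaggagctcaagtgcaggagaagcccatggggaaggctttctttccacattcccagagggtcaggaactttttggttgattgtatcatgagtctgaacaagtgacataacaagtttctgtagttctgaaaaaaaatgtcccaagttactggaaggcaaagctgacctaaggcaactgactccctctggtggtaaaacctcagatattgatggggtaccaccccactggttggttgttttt

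Letters were searched on both strands. They were TGANTCA for AP-1, GAGGAAGT for PU.1, TTGCNNAA for C/EBP, TGTGGTT for RUNX factors, GGGNGTGG for KLF and SP factors, AGATAAG for GATA factors, AGGGGGCGC for the insulator protein CTCF, CAGCTG for an E-box and TGCTGAC for MAF factors, with longer motifs for IRF and NF-kB. The Add3 stretch holds 1 KLF/SP match and 1 PU.1 match, both on the strand opposite to the one printed, 3 bases apart. Of all 32851 promoter windows searched, 15.9% hold the KLF/SP letters and 2.44% the PU.1 letters. The other shares are 9.56% for C/EBP, 6.75% for AP-1, 4.40% for RUNX, 3.81% for MAF, 2.98% for IRF, 2.74% for GATA, 1.11% for CTCF and 0.356% for NF-kB. The E-box letters are in 4271 windows. The Prkce and Trim30a stretches hold none of these letters. A match is a string of letters in a window and no evidence that a factor binds there.

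A further set of stretches shows the promoters of genes whose first intron holds a called region and whose promoter region was called too. Chn2 is shown as a gene with negative deposited folds at both places, and Cldn10 and E2f3 as genes with opposite folds. The Chn2 stretch is chr6:54039682-54039931 on the plus strand, the Cldn10 stretch chr14:118854700-118854949 on the plus strand and the E2f3 stretch chr13:29986064-29986313 on the minus strand. Capitals in the Cldn10 stretch mark its E-box, and the other stretches hold none of the motifs.
Chn2 promoter: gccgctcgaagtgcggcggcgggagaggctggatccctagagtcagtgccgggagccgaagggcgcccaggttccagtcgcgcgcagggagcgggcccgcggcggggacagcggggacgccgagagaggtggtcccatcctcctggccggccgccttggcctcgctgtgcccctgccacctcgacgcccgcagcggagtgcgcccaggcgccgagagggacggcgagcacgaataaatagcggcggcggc
Cldn10 promoter: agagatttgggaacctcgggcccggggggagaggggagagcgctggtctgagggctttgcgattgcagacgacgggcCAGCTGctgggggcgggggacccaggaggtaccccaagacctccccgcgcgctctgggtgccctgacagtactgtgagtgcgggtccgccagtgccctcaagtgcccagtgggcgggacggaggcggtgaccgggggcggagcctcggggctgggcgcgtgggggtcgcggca
E2f3 promoter: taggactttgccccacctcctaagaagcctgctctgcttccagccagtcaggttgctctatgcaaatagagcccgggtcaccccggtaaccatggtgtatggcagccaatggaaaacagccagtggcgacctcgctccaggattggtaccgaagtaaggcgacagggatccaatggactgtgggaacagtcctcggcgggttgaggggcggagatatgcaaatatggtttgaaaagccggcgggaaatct

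First-intron regions were called in the deposited table somewhat more often than regions as a whole. The count was 340 of 3571 (9.52%), against 7.55% of all 40796 regions. A positive fold was found in 113 of them (3.16%, against 2.56% of all regions) and a negative fold in 227 (6.36%, against 4.99%). Positive folds made up 33.2% of the first-intron calls and 33.9% of all calls. The median fold over all first-intron regions was -0.16 (quartiles -0.42 and 0.11), and 65.4% of them lay below 0. Over all regions the median was -0.09, with 61.5% below 0. No test of members against other regions was run, since regions of one set of libraries are not replicates.

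Later introns and distal intergenic regions came close to these values, and core promoters did not. The share called in the deposited table was 9.08% of 6434 later-intron regions, 9.25% of 9916 distal intergenic regions and 8.30% of 3842 regions 1 to 3 kb from a start. It was 5.24% of 15510 regions within 1 kb of a start, and 7.22% of 1523 regions in exons, UTRs and just downstream of genes. The median size of the deposited fold, without its sign, was 0.299 in first introns, 0.296 in later introns and 0.166 within 1 kb of a start. Called first-intron regions had median folds of 0.98 on the positive and -0.83 on the negative side, and 116 of them reached a size of 1 on the log2 scale.

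**Figure D1:**
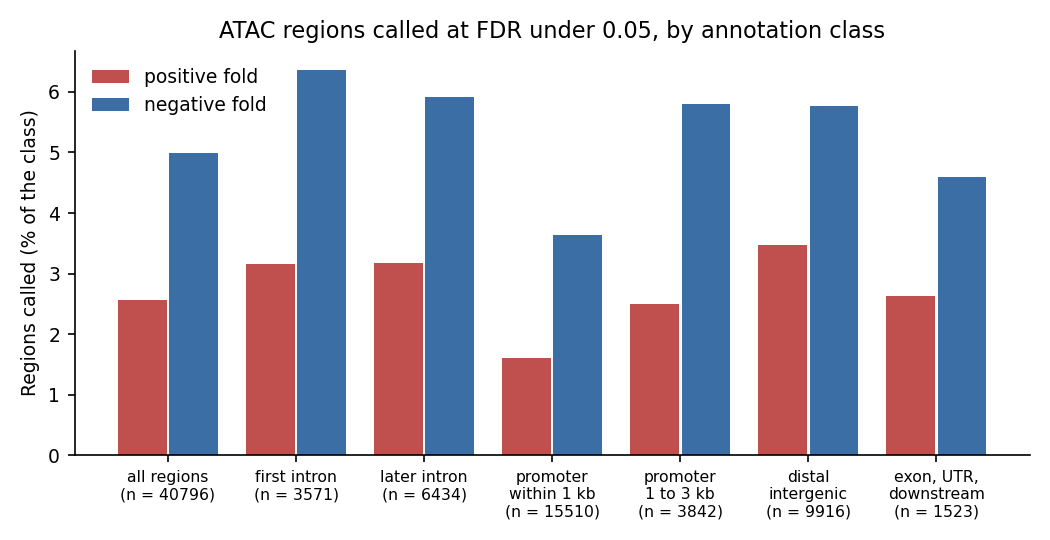
Share of regions called at a deposited FDR under 0.05 in each annotation class (bars start at 0, red for a positive and blue for a negative fold, number of regions under each class). First introns show 3.16% positive and 6.36% negative calls, near later introns (3.17% and 5.91%) and above promoters within 1 kb (1.60% and 3.64%).

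The annotation takes regions within 3 kb of any transcript start as promoters first, so every first-intron region lies farther out. Distances to the nearest start ran from 3008 to 253079 bases with a median of 10537. The host gene was also the gene of that nearest start for 2433 regions (68.1%). For the other regions the nearest start belongs to another gene. Most regions (3524, 98.7%) are 400 bases wide. Between 3 and 5 kb, 8.92% of 583 regions were called in the deposited table, between 5 and 10 kb 10.7% of 1125, between 10 and 20 kb 7.65% of 1020, between 20 and 50 kb 10.5% of 657, and beyond 50 kb 11.3% of 186. The median deposited folds of the same bins were -0.17, -0.19, -0.14, -0.14 and -0.16. The medians showed no trend with distance.

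**Figure D2:**
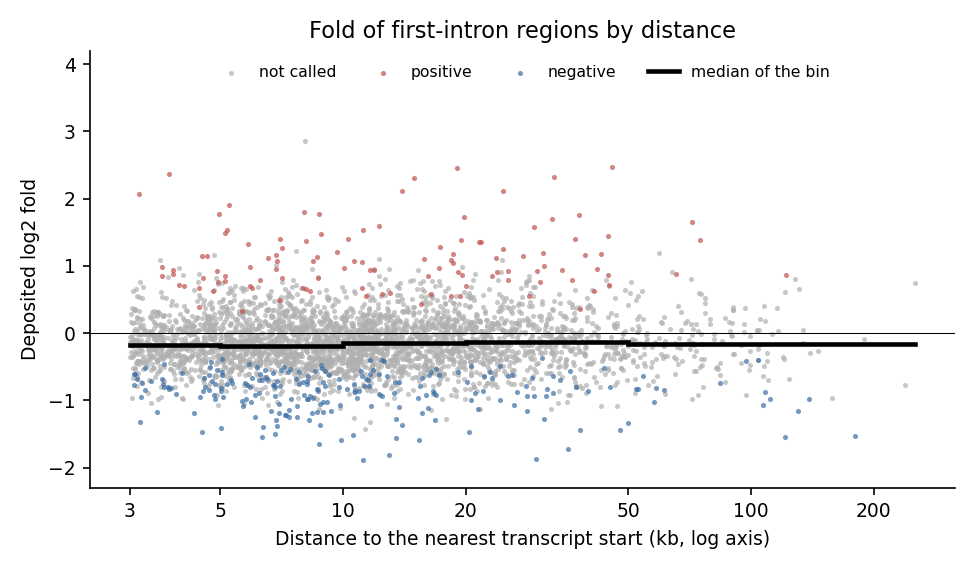
Deposited log2 fold of each of the 3571 first-intron regions against its distance to the nearest transcript start in kb (log axis), with called regions in red (positive) and blue (negative) and the median of each distance bin as a black line. The medians stay between -0.19 and -0.14 from 3 kb outward.

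The largest positive folds fell in genes of varied function. In the authors' deposited table the first was Creb3l2, a membrane-bound bZIP transcription factor of the endoplasmic reticulum, at chr6:37396097-37396496 (log2 fold 2.47, FDR 0.00146). The deposited fold was 2.36 at chr9:37133414-37133813 in Pknox2, a homeodomain transcription factor (FDR 0.000115). Zswim6, a zinc-finger SWIM domain protein, had 2.31 at chr13:107844247-107844646 in the deposited table (FDR 0.000131). The remaining 5 by the same rule had deposited folds of 2.11 in Ofcc1, 2.07 in Adgrv1 (a very large adhesion receptor), 1.76 in March4 (a membrane-bound ubiquitin ligase), 1.59 in Sema3a and 1.58 in Srpk2 (a kinase of splicing factors). Sema3a encodes a secreted semaphorin that binds neuropilin-1. Its deposited FDR was 0.0235, the weakest of these 8, and the nearest start to the region belongs to a predicted gene.

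The largest negative folds fell in genes of varied function as well. The deposited fold was -1.88 at chr10:13832668-13833067 in Aig1, a membrane hydrolase of fatty acid esters (FDR 0.00144). Arhgap28, a GTPase-activating protein, had -1.81 in the deposited table (FDR 0.0362). Cradd, a death-domain adaptor of caspase-2, had -1.72 (deposited FDR 0.00792). Macf1, which links actin to microtubules, had -1.59 at chr4:123588412-123588811 (deposited FDR 0.00278). Mertk, the receptor kinase with which macrophages take up dying cells, had -1.51 at chr2:128709512-128709911 (deposited FDR 0.00680). The others by the rule were Nol4l at -1.56, Cpq (a secreted peptidase) at -1.54 and Ntm (a neuronal adhesion protein) at -1.53 in the deposited table. Hosts on chromosome 18 and predicted models were passed over in these lists of 8. This skipped 10 called regions on the positive and 4 on the negative side. One first-intron region had a larger positive fold than any called one. It lies in C230099D08Rik, with a deposited fold of 2.85 and an FDR of 0.0586, and was picked out after its values were seen.

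**Figure D3:**
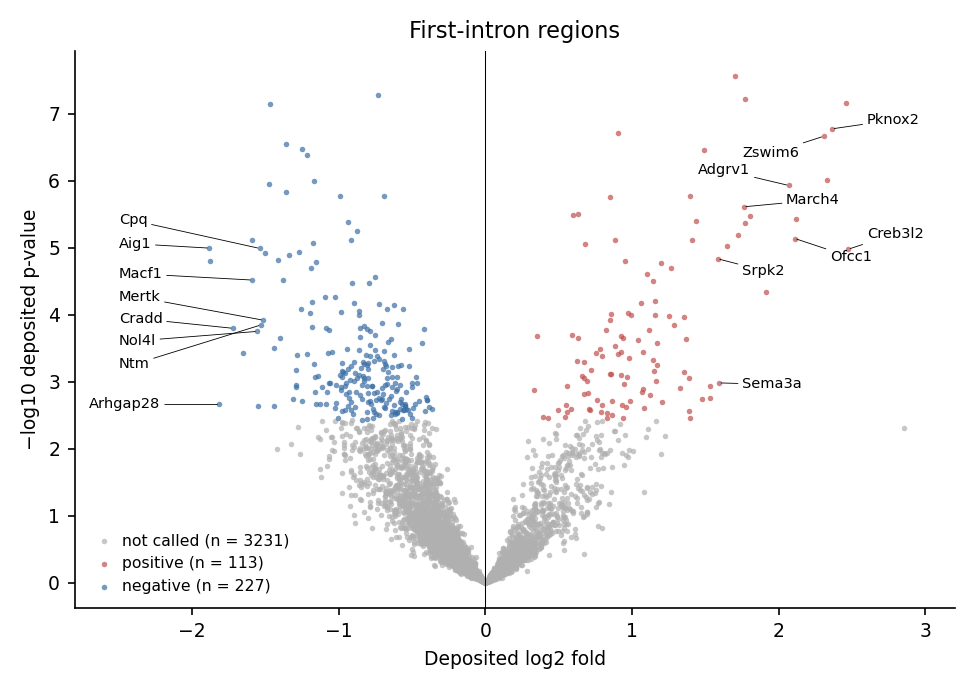
Each first-intron region by its deposited log2 fold and the −log10 of its deposited p-value, with 113 positive calls in red, 227 negative calls in blue and 3231 uncalled regions in grey. The labels name the 8 largest called folds on each side outside chromosome 18 and predicted hosts, which run from 1.58 to 2.47 and from -1.88 to -1.51.

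At the threshold itself there was no step. Just inside it lay Litaf (-0.57, FDR 0.0480), Kcnq1 (-0.81, FDR 0.0487) and Clybl (-0.84, FDR 0.0494) in the deposited table. Just outside lay Dock8 (-0.91, FDR 0.05002), Tomm70a (1.16, FDR 0.0506) and Lncenc1 (0.68, FDR 0.0507). These deposited folds overlap in size.

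The 3571 regions fall in 1959 host genes, of which 1202 hold 1 region and 757 hold 2 or more. A call in the deposited table was found in 307 hosts and 2 or more calls in 28 hosts. Among these 28, all calls were negative in 15, all positive in 6 and of both signs in 7. Of all first-intron calls 33.2% were positive, and what that tilt contributes to these counts was not tested. Adgrl2 (latrophilin-2, an adhesion receptor) had 4 called regions of 5, with deposited folds of -0.81, -0.56, -0.89 and -0.81 between chr3:148895570 and chr3:148959782. Chn2 (beta-chimaerin, which switches off Rac) had 3 of 11 called, at -1.17, -0.89 and -0.99. Cradd had 3 of 10 called, at -1.72, -0.67 and -0.86. Prkce (protein kinase C epsilon) had 2 of 13 called, at -0.52 and -0.80, the first of which is the region whose overlap is printed above. In these 4 genes, named for their number of calls, every called region had a negative deposited fold.

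Pde1a, a calcium-activated phosphodiesterase of cyclic nucleotides, was the counterpart on the positive side. Its deposited folds were 0.60, 0.63 and 0.95 in 3 called regions of 5, and the other two were positive as well. Pairs of positive calls were also deposited for Dach1 (1.19 and 1.37), March4 (1.76 and 1.14) and Ankrd33b (1.40 and 0.56), named after their values were seen.

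Opposite calls within 1 host gene were found in Tnfrsf1b, the gene of TNF receptor 2. Both of its called regions are annotated to the same transcript, which is not given here for the genes that follow. The deposited folds of Tnfrsf1b were -0.42 at chr4:145233866-145234265 and 0.33 at chr4:145240801-145241200. An uncalled region of -0.65 (FDR 0.0539) ends just before the second. Ntm had -1.53 and 1.53, Zswim6 2.31 and -0.58, Srpk2 1.58 and -1.08, Apbb1ip -0.92 and 0.79, and Slc16a10 0.97 and -0.61 in the deposited table. These genes, outside Tnfrsf1b and the large folds above, were named after their values were seen. Across all hosts, the sign shared by neighbouring regions of the same gene was read against the overall share of negative folds. With 65.4% of first-intron regions below 0, that tilt alone gives 54.8% of pairs with the same sign. The share in the deposited table was 59.8% of 281 pairs under 1 kb apart, 66.3% of 264 pairs at 1 to 5 kb, 60.3% of 690 pairs at 5 to 20 kb and 55.7% of 377 pairs beyond 20 kb. Pearson's r of the deposited folds over these pairs was 0.208, 0.134, 0.220 and 0.052. The pairs share their libraries and often a gene, so these are descriptions.

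Where the promoter of the same gene had a region too, its call and sign were set beside those of the first intron. Of the 307 hosts with a called first-intron region, 222 had a region within 3 kb of a start of that gene, and 31 of the 222 (14.0%) had a called one in the deposited table. In 1184 hosts without a called first-intron region but with a promoter region, the number was 119 (10.1%). Hosts with a negative first-intron call had 22 negative and 3 positive promoter calls among 153. Hosts with a positive first-intron call had 5 negative and 1 positive among 69. Most promoter calls were negative in any case. Over all genes, 30.5% of called regions within 1 kb of a start and 30.1% of those at 1 to 3 kb were positive. What this tilt contributes to the counts was not tested.

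Chn2 had a deposited promoter fold of -0.76 (FDR 0.00488), with the sign of its 3 called first-intron regions, and its letters are printed above. Macf1 (-1.01), Nol4l (-1.13) and Litaf (-0.52) also had a called promoter region with the negative deposited fold of their intron. Pde1a was the 1 host with positive calls at both, with a deposited promoter fold of 1.48 (FDR 0.0204).

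Opposite signs were deposited for 8 hosts, all named after their values were seen. Zfhx3, a large homeodomain and zinc-finger transcription factor, had -1.10 in the first intron (FDR 0.00405) and 2.06 at a promoter region, chr8:108637931-108638330, in the deposited table (FDR 3.6e-05). Phactr2, a regulator of protein phosphatase 1 and actin, had 0.55 and -1.47. Cldn10, a claudin of tight junctions, had 0.63 in the intron and -0.92 at the promoter in the deposited table. E2f3, a transcription factor of the cell cycle, had -0.62 and 0.36. The deposited pairs of the remaining 4 were 0.76 and -0.68 in Ripor2, 1.20 and -0.62 in Rnf219, 0.43 and -0.76 in Arhgap6, and -0.53 and 0.39 in Top3a. A gene can have several starts, so the promoter region of each pair need not belong to the transcript whose intron was annotated.

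Gene lists of cell types and pathways held 228 of the first-intron regions, in 112 host genes of 516 listed. Among these regions, 6 were called positive and 16 negative in the deposited table (22 in all, 9.65%, near the 9.52% of all first-intron regions). No first-intron region lies in any of the 20 neutrophil secondary granule genes, 15 classical monocyte genes or 15 basophil and mast cell genes listed. In the macrophage list Mertk held the 1 call among 4 regions. Cd36, a scavenger receptor, had a deposited fold of -0.44 (FDR 0.0104), 1 call among the 10 regions of the non-classical monocyte list. Rxra, a nuclear receptor, had 0.99 (FDR 0.0341) and Etv6, an ETS repressor, -0.36 (FDR 0.0395) in the deposited table, the 2 calls among 33 regions of myeloid transcription factors.

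Genes of other blood lineages held a few calls as well. Bach2, a repressor best known from B cells, had a deposited fold of -0.83 (FDR 0.0204) and Runx3, a factor of T cells and phagocytes, -0.71 (FDR 0.0325). Ank1, the ankyrin of the red cell membrane, had 0.72 (deposited FDR 0.0184). At the share of 9.52% over first introns, lists of this size hold few calls or none. No call fell in the 16 regions of suppressive effector genes, the 13 of chemokine receptors, integrins and adhesion genes, the 4 of MHC class II and dendritic cell genes or the 3 of arginine and nitric oxide genes. The same held for 2 regions of primary granule genes, 2 of immediate early genes, 1 of NK cell genes and 1 of megakaryocyte genes. The 2 calls among 17 regions of NF-kB and cytokine signalling genes were those of Tnfrsf1b.

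The neuropilin, plexin, semaphorin and VEGF list had 4 regions with 2 positive calls in the deposited table, Sema3a (1.59) and Flt1, the VEGF receptor 1 (1.25, FDR 0.00609). Of all first-intron regions 9.52% were called, and 4 regions are too few to set against that share. For the pathway named in the study's design text, regions were few. Nos2, Klf4, Sema4a and Mtor hold no first-intron region. Mapk14, the p38 alpha kinase, holds 1, at -0.45 and a deposited FDR of 0.0991. None of the 22 regions in p38 MAPK genes and neither of the 2 in Kruppel-like factor genes (Klf13 and Klf16) was called. The mTORC1 list had 1 call among 15, Fnip2, a partner of folliculin, at -0.62 (deposited FDR 0.0436).

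RNA of the host genes was compared between 3 Nrp1 high and 3 Nrp1 low libraries with total counts of 23395363 to 35127433. Levels are CPM, counts scaled to library size with TMM factors, and a log2 fold change above 0 means a higher level in Nrp1 high. Monocyte markers were present in all 6 libraries, with Csf1r at 377 to 495 CPM, Ly6c2 at 1630 to 2620 and Ccr2 at 368 to 914. Cd3e lay at 1.33 to 2.96 CPM and Ly6g at 2.41 to 9.91. The summed level of the 20 neutrophil secondary granule genes was 43200 to 72800 CPM in Nrp1 low and 7700 to 8780 CPM in Nrp1 high, with 11 of 20 called lower. Primary granule and granulocyte progenitor genes summed to 12700 to 19500 CPM in Nrp1 low and 2980 to 5260 CPM in Nrp1 high, with 9 of 16 tested called lower. Megakaryocyte and platelet genes summed to 121 to 183 and 95.6 to 107 CPM, with 3 of 16 called lower and a median log2 fold change of -1.69. The lists of classical monocyte, non-classical monocyte and basophil genes held 1 lower call each. The part of these genes in the results below was not tested. In sorted bulk cells, fewer cells of a type and less RNA per cell cannot be told apart.

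Of the 1959 host genes, 1398 passed the filter on low counts, and 10 were called lower and none higher in Nrp1 high (0.715%). Over all 15541 genes tested, 106 (0.682%) were called and 105 (0.676%) of them were lower. At an unadjusted p under 0.05, 101 hosts were higher and 101 lower (edgeR quasi-likelihood test). The share of hosts called was thus near the share of all genes. Without Nrp1 high replicate 3 no host was called (94 at an unadjusted p under 0.05), and none of all genes either. The number of hosts was 1 without Nrp1 low replicate 3, 2 without Nrp1 high replicate 2 and 3 without Nrp1 high replicate 1. Over all genes the calls were 29, 50 and 28 in the same order. DESeq2 called 44 hosts and 403 of all genes.

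Several of the 10 encode proteins of lipid mediators, proteolysis and inflammation. Alox5, the 5-lipoxygenase that makes leukotrienes, had 177, 107 and 109 CPM in Nrp1 low and 21.8, 32.7 and 32.3 CPM in Nrp1 high. The groups did not overlap, and its log2 fold change was -2.18 ± 0.28 (SE, edgeR adjusted p 0.0149). Il1r2, a decoy receptor for interleukin-1, had 20.2, 18.7 and 18.6 CPM in Nrp1 low and 4.40, 4.89 and 4.05 in Nrp1 high (log2 fold change -2.10 ± 0.26, edgeR adjusted p 0.0114). Pla2g7, which breaks down platelet-activating factor, had 336, 208 and 225 CPM against 58.1, 103 and 70.4 in Nrp1 high (-1.73 ± 0.29, edgeR adjusted p 0.0458). Each Nrp1 low library lay above each Nrp1 high library for these 3 genes.

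The strongest fall was in Tuba8, an alpha-tubulin, with 82.6, 57.7 and 71.5 CPM in Nrp1 low and 4.56, 10.6 and 8.91 in Nrp1 high (log2 fold change -3.14 ± 0.35, edgeR adjusted p 0.00825). Dstn, an actin-severing protein, had the smallest fall among the 10, from 454, 359 and 433 CPM to 187, 198 and 191 (-1.11 ± 0.18, edgeR adjusted p 0.0429). The others were Tmem40 (-2.81), Serpine2 (-2.66), Smpdl3b (-2.18), the tetraspanin Cd9 (-1.50) and one clone-named gene, 4930438A08Rik (-3.04). All 10 had groups that did not overlap, which adds no support, since they were picked by the test on the same libraries. Uncalled hosts such as Macf1 and Dock10 had no overlap either, and the share over all genes was not counted.

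The 12 first-intron regions of these 10 genes included no call. At the 9.52% called over all first-intron regions, 12 regions hold few calls or none. The deposited folds of the 12 ran from -0.41 to 0.38, and the lowest FDR was 0.141, at the region of Dstn with 0.38. Alox5 had -0.17 at chr6:116455794-116456193, Il1r2 -0.39 at chr1:40081063-40081462 and Tuba8 0.12 at chr6:121214994-121215393 in the deposited table.

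Of 38 host genes named for their regions, 28 were tested in RNA and none was called, where 0.682% of all genes were called and so few genes would seldom hold one. There were 21 with an RNA log2 fold change above 0 and 7 below. The lowest adjusted p was 0.396 (edgeR), for Dock10, the 1 gene of the 28 with an unadjusted p under 0.05, and DESeq2 called none of the 28. Dock10 had 47.4, 143 and 96.7 CPM in Nrp1 low and 205, 168 and 210 CPM in Nrp1 high, a log2 fold change of 1.02 ± 0.36. Its called region, chr1:80660331-80660730, had a deposited fold of -0.86 (FDR 0.00545).

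Macf1 had 11.6, 76.0 and 49.4 CPM in Nrp1 low and 92.1, 79.4 and 93.3 in Nrp1 high (0.95 ± 0.55, edgeR adjusted p 0.471). Zswim6 had 1.18, 15.4 and 7.58 CPM in Nrp1 low and 28.2, 13.2 and 22.9 in Nrp1 high (1.42 ± 0.75, edgeR adjusted p 0.458). Creb3l2 had 1.14, 5.18 and 4.87 CPM in Nrp1 low and 7.26, 5.23 and 6.64 in Nrp1 high (0.78 ± 0.55, edgeR adjusted p 0.523). In all 3 genes, and in Dock10, Nrp1 low replicate 1 was the lowest library.

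Mertk was low in both fractions, with 4.07, 4.38 and 5.33 CPM in Nrp1 low and 4.95, 2.72 and 2.92 in Nrp1 high (-0.38 ± 0.39, edgeR adjusted p 0.640). Chn2, with its run of negative regions, had 33.5, 16.8 and 19.9 CPM against 23.5, 29.8 and 22.8 (0.12 ± 0.31, edgeR adjusted p 0.866). Tnfrsf1b had 148, 248 and 198 CPM against 209, 193 and 247 (0.13 ± 0.23, edgeR adjusted p 0.792). In these 3 genes the groups overlapped. Pknox2, Adgrv1, March4, Sema3a, Arhgap28, Kcnq1 and Pde1a had too few counts to be tested, with Sema3a at 0 to 4 counts a library and Pde1a at 0 to 11. Ofcc1, Ntm and Lncenc1 were not matched to a row of the RNA table. Hosts were tested in RNA for 59.3% of positive, 74.9% of negative and 73.8% of uncalled regions.

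**Figure D4:**
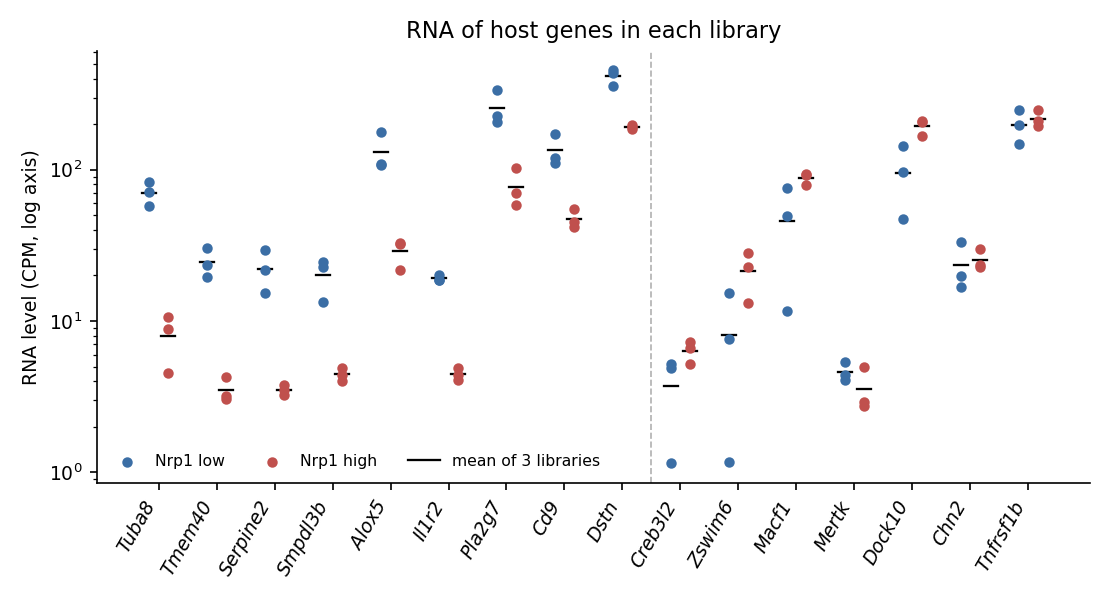
RNA level in CPM (log axis) of 16 host genes in each Nrp1 low (blue) and Nrp1 high (red) library, with black bars for the mean of 3 libraries. The 9 genes left of the dashed line were called lower in RNA and hold no called first-intron region. The 7 on the right hold called regions and were not called in RNA. Of all first-intron regions 9.52% were called, and of all RNA genes 0.682%.

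The sign of the region and of the RNA difference matched about as often in hosts with a called region as in hosts without one. Of 211 hosts with a called first-intron region and an RNA test, 87 (41.2%) had the same sign in the deposited fold and in RNA. This share rests on the undecided direction of the deposited fold, and with the fold turned it would be 58.8%. As deposited, the share was 43.2% of 1187 hosts without a called region (56.8% turned) and 39.9% of 766 genes with a called promoter region (60.1% turned). RNA lay above 0 in 38 of 62 hosts with a positive call and in 100 of 149 hosts with a negative call. Their median RNA log2 fold changes were 0.20 and 0.30. Host RNA thus lay above 0 more often than not on either side.

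The same held for host genes as a group. Their median RNA log2 fold change was 0.22, with 62.2% above 0, beside 0.01 and 50.6% over all genes tested. Gene length moved with this value. The genes tested were split by RefSeq length into 4 classes of equal number. The longest class held 70.7% of the hosts with a length, against 20.1% of genes without a first-intron region. The median RNA log2 fold change was -0.16, -0.16, -0.01 and 0.31 from the shortest to the longest class. Within the longest class it was 0.36 for hosts with a negative call, 0.37 for hosts without a call, 0.27 for hosts with a positive call and 0.30 for genes without a first-intron region.

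A single library also moved with it. Without Nrp1 low replicate 1 the median RNA log2 fold change was 0.09 for hosts, 0.17 for hosts with a negative call and -0.02 for hosts with a positive call, and 0.15 for the longest class. Scaled by library totals in place of TMM factors, the median over all genes was 0.20 and that of hosts 0.40. What length and that library contribute to the level of host RNA was not tested further.

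**Figure D5:**
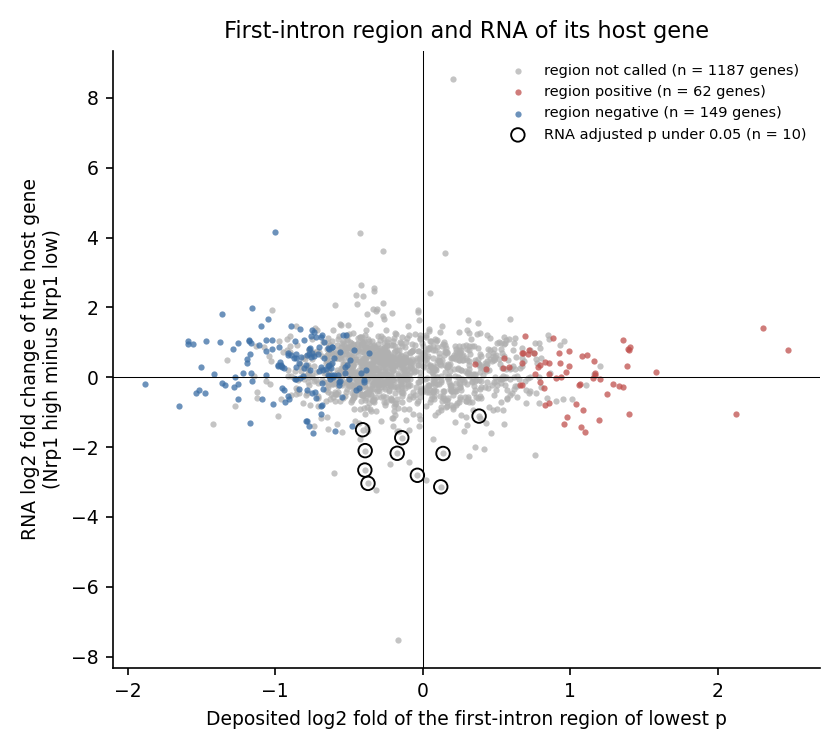
RNA log2 fold change of each host gene (Nrp1 high minus Nrp1 low) against the deposited log2 fold of its first-intron region of lowest p, with hosts coloured by the call of that region and the 10 genes called in RNA circled. The circled genes all lie below 0 in RNA and between -0.41 and 0.38 on the region axis.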

How the data were processed

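Per the labels' protocols, ATAC libraries were made with a transposase kit and RNA libraries with a SMART-Seq kit, both read in pairs of 150 bases. Per the submitters' processing notes, Trimmomatic, BWA, Picard, MACS2, DiffBind, edgeR, DESeq2, ChIPseeker, HISAT2 and StringTie were used with GRCm38; their versions were not found in the labels. The authors deposited 1 ATAC table of their Nrp1 high and low comparison, holding per region a log2 fold, its p-value, its FDR and a distance in bases to the nearest start. It has no value per library, so ATAC depth is unknown, no replicate could be left out and whether reads were shifted for the transposase is not stated. The labels of the ATAC samples cite a DESeq2 result, whereas the table used is named for edgeR. The authors deposited RNA as estimated counts per gene, in whole numbers, so rounding changed nothing. Strand is not stated, so overlapping and antisense genes are uncertain.

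Here members were selected by annotation, hosts were read from the transcript named, and a region was called under FDR 0.05. RNA was tested with edgeR 4.0.16 (filterByExpr, TMM, robust quasi-likelihood F test, group as the term) in R 4.3.3, with Benjamini-Hochberg adjustment over 15541 genes, and the code was tested on simulated data. Groups and replicate numbers come from the sample titles. The labels do not say that equal replicate numbers mark pairs, so no block entered the main test. Same-numbered RNA libraries had deviations from their group mean correlated at -0.237, -0.240 and 0.021. With 3 libraries in each group, these values cannot exclude shared animals or batches. Alternatives were other thresholds and region filters, RLE, upper-quartile and total scaling, limma-voom 3.58.1, DESeq2 1.42.0, no filter beyond 1 count, the replicate number as a block and leaving out each RNA library. Named were the 8 largest called folds per direction, up to 2 called members of each list, every member in 6 genes of the design text, the 3 regions on each side of the threshold and the 5 hosts with most calls, leaving out chromosome 18 and predicted models. Members and lists were chosen with earlier results of these data known. The results of 1 gene list and of 1 marker gene are not reported here.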

Additional observations from a re-analysis of the deposited data

How the results depend on the processing

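The number of first-intron calls followed the threshold on the deposited values. Positive calls went from 113 to 51 at FDR 0.01, 185 at FDR 0.1, 54 with a log2 size of at least 1 and 66 for regions at least 10 kb from a start. Negative calls went from 227 to 60, 405, 62 and 102 in the same order. The share called was 3.11% at FDR 0.01, 16.5% at FDR 0.1 and 3.25% with a log2 size of at least 1, where all regions gave 2.45, 13.2 and 2.44%. The median fold was -0.0689 after subtracting the median of all regions. Each of these follows from fewer or more regions taken, or from the centring. Region width, the gene of the nearest start and, chosen after seeing the data, leaving out predicted hosts left counts within 1.5 times. Of RNA hosts, 10 were called, and 44 with DESeq2 (14 of them higher, 403 over all genes). With 1 library left out, 0 to 11 hosts were called, beside 0 to 125 over all genes. With the replicate number as a block 0 were called, as over all genes, and 116 had an unadjusted p under 0.05. The cause of these changes was not tested. Under the block the 10 called hosts lost their call, and no host named for its region gained one. The share of called hosts with the same sign in RNA lay between 37.0 and 44.3% (55.7 to 63.0% if the undecided direction of the deposited fold is turned) under every alternative run, including hosts in the longest of 4 length classes alone (39.2%), chosen after seeing the data. Without values per library, the precision of a single ATAC fold cannot be given.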

Other observations

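The host named by the annotation can be a poor guide to the gene. The predicted gene Gm20388 hosts 76 first-intron regions, more than any other gene, spread over chr8:120016324-124274134 and nearest to the starts of 37 different genes. One of its regions had a positive and one a negative call in the deposited table. In all, 656 first-intron regions (18.4%) lie in predicted or clone-named hosts. The region of lowest p among all first-intron regions lies in one of these, 4930519F09Rik, with a deposited fold of 1.70 and an FDR of 3.6e-05. Among hosts with established names the lowest p was in Trio, a guanine nucleotide exchange factor, with a deposited fold of -1.47 and an FDR of 5.71e-05 at chr15:27974548-27974947. Both were picked out after their values were seen.

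By chromosome, the share of first-intron regions called in the deposited table ran from 5.84% of 154 on chromosome 17 (9 regions) to 12.1% of 314 on chromosome 2 (38 regions), apart from chromosome 18 with 16 calls among 123, with 6.94% of 72 on the X chromosome. The median deposited fold was below 0 on every chromosome listed, between -0.23 on X and -0.08 on chromosome 10.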
